A study of Rattus norvegicus with 6 samples.

Results

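Cadherins and protocadherins were followed across RNA-seq libraries of primary rat hippocampal neurons in which cyclin Y (CCNY) was raised or lowered. Every gene symbol made of Cdh and a number, or starting with Pcdh, was taken, which gave 69 of the 17066 genes in the table. They comprised 14 classical cadherins (4 of type I and 10 of type II), 5 other Cdh genes, 40 clustered protocadherins (15 alpha, 11 beta and 14 gamma) and 10 non-clustered protocadherins (3 of the delta-1 group, 4 of the delta-2 group and 3 others). Symbols that the table did not list, Cdh4, Cdh12, Pcdh1 and Pcdh10 among them, were not analysed here.

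The cultures came from Sprague-Dawley embryos at embryonic day 18, and all of them were infected with a lentivirus between days 5 and 6 in vitro (DIV) and lysed at DIV14. The virus carried EGFP alone (the control), CCNY-WT together with EGFP (overexpression) or CCNY-shRNA together with EGFP (knockdown), with 2 libraries sequenced from each of these 3 conditions. The vector, FUGW, holds a ubiquitin promoter that is not restricted to neurons, and the paper does not name the promoter of the hairpin. No control hairpin is named for the EGFP virus. The labels do not say whether the libraries of a condition came from separate cultures, so a p-value here measures only the spread between these libraries, which may be technical.

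Cadherins are calcium-dependent adhesion proteins that span the membrane. Classical cadherins bind the same cadherin on a neighbouring cell and hold on to actin through beta-catenin and alpha-catenin, and at synapses N-cadherin (Cdh2) bridges the cleft. Clustered protocadherins are made from gene arrays in which each variable exon has its own promoter and, in the alpha and gamma arrays, is spliced to shared constant exons, so that single neurons show different sets of isoforms and tell their own branches from those of other cells. Non-clustered protocadherins are single genes. Those of the delta-2 group recruit actin regulators of the WAVE complex, and Pcdh8, also called arcadlin, was first known as a gene induced by synaptic activity whose protein draws N-cadherin into the cell at synapses.

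Levels are given as FPKM, fragments per kilobase of transcript scaled to the total mapped, which allows genes of different length to be set side by side. Ccny itself followed the labels, with a log2 change against EGFP of 1.35 in CCNY-WT and -2.81 in CCNY-shRNA. Neuronal markers summed to between 3233 and 3353 FPKM in the 6 libraries, with all 8 genes of the list above 1, and astrocyte markers summed to between 242 and 312. Of 6 microglial markers, 5 lay under 1 FPKM in every library, as did 6 of the 8 vascular and meningeal markers listed, with Cldn5 at 0 throughout and Lum at 46.0 to 59.7. Sequencing depth, estimated relative to EGFP replicate 1, ranged from 0.819 to 1.32, both ends being libraries of other conditions, CCNY-shRNA replicate 1 and CCNY-WT replicate 1. A change was fitted with limma on log2 of FPKM floored to 1, for genes with at least 1 FPKM in 2 or more libraries. This filter kept 10188 genes, 57 of the 69 among them.

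**Figure D1:**
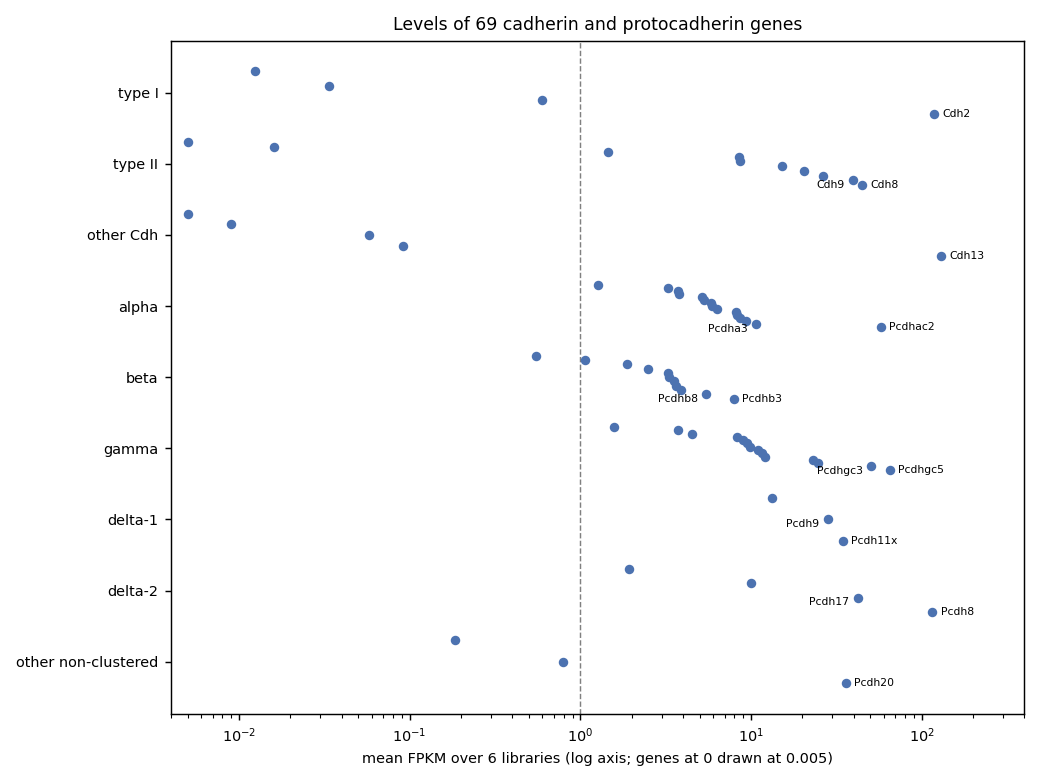
Mean FPKM over the 6 libraries (log axis) of each of the 69 genes, grouped by subfamily, with 1 point per gene, the dashed line at 1 FPKM and the leading genes named. Cdh13, Cdh2 and Pcdh8 stand furthest right, and 12 genes lie left of the line.

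The most abundant genes were Cdh13, Cdh2 and Pcdh8, each from another branch of the family. Cdh13, or T-cadherin, which is tied to the membrane by a lipid anchor and lacks the part that binds catenins, had the highest mean at 129 FPKM. Cdh2 followed with 119 and Pcdh8 with 116. Under EGFP alone Pcdh8 came first, with 129 and 131, and the values of Cdh2 (122 and 125) lay between those of Cdh13 (118 and 126). In all, 23 genes had a mean above 10 FPKM. Among type II cadherins, which contribute to sorting of neuron types and to specific hippocampal synapses, Cdh8 led with 44.8, ahead of Cdh9 with 39.6, Cdh11 with 26.3 and Cdh10 with 20.4. Under EGFP the gap between Cdh8 (43.5 and 46.4) and Cdh9 (41.7 and 42.2) was about as large as that between the replicates of Cdh8.

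Among clustered genes the C-type isoforms stood far above the rest. C-type variable exons lie at the end of the alpha and gamma arrays and, unlike the others, are not chosen at random by single cells. Pcdhgc5 had a mean of 64.9 FPKM, Pcdhac2 of 57.7 and Pcdhgc3 of 50.6, whereas Pcdhac1 had only 1.28. The highest of the other alpha isoforms, Pcdha3, had 10.8, followed by Pcdha4 with 9.32 and Pcdha13 with 8.63. Of the other gamma isoforms Pcdhga3 had 24.6 and Pcdhga7 23.0. Beta genes, which have no constant exons, were the lowest group, with a median of 3.32 and a maximum of 7.93 (Pcdhb3), ahead of Pcdhb8 with 5.49, Pcdhb9 with 3.87 and Pcdhb20 with 3.65. Non-clustered genes had a median of 20.7. Below Pcdh8 the order was Pcdh17 with 42.3, Pcdh20 with 35.9, Pcdh11x with 34.6 and Pcdh9 with 28.2.

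Genes that mark other cell types were at the bottom of the range. Cdh5, the cadherin of blood vessel walls, was listed at 0 in all 6 libraries, as was Cdh26. Cdh1, the epithelial E-cadherin, reached at most 0.0397 FPKM, where the steps in the values give 1 fragment as the smallest number that fits. Cdh15, known from muscle, ranged from 0.433 to 0.703, and the endothelial Pcdh12 from 0.0836 to 0.254. Other genes near 0 by their mean were Pcdh15 (0.794), Cdh23 (0.0912), Cdh17 (0.0576), Cdh3 (0.0338) and Cdh16 (0.00902). None of the 12 genes under the filter was tested.

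The gene starts of the beta and gamma arrays share a short sequence, shown here because the members of these arrays are described together in what follows. Promoter windows of RefSeq (GRCr8, 250 bases before to 50 after the gene start) were matched for 43 of the 54 members outside the alpha array, while all 15 alpha symbols belong to a single RefSeq entry, whose start is not that of each isoform. The motif GNGNCGCTG, searched on both strands and chosen after the windows had been looked at, was in 11 of 11 beta windows and 10 of 13 gamma windows, against 6.18% of all 33469 windows and 3 of the 19 other members matched. Its core CGCT alone, contained in it, was in 60.9% of all windows. The stretches shown are of 6 genes with an unadjusted p under 0.05 in at least 1 comparison and of Pcdhgb8, which had none, and capitals mark the motif.
Pcdhb2: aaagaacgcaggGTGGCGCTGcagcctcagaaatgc
Pcdhb3: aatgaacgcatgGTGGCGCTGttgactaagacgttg
Pcdhb5: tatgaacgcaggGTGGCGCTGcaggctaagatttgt
Pcdhga7: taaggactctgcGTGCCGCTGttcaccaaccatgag
Pcdhga8: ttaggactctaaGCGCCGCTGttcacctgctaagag
Pcdhgb8: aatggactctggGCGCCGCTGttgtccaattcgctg
Pcdhgc3: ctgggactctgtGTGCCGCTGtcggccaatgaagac
On the plus strand of GRCr8 these stretches are chr18:29279922-29279957 for Pcdhb2, chr18:29285603-29285638 for Pcdhb3 and chr18:29302403-29302438 for Pcdhb5. Those of the gamma array are chr18:29794204-29794239 for Pcdhga7, chr18:29804999-29805034 for Pcdhga8, chr18:29839495-29839530 for Pcdhgb8 and chr18:29884065-29884100 for Pcdhgc3. The windows of Pcdhga1, Pcdhga11 and Pcdhgc5 held no match.

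The Pcdh8 window held no GNGNCGCTG. The 200 bases before the gene start, chr15:61612091-61612290 on the minus strand of GRCr8, are shown because Pcdh8 gave the only member call, with the single TATAAA in capitals.
Pcdh8: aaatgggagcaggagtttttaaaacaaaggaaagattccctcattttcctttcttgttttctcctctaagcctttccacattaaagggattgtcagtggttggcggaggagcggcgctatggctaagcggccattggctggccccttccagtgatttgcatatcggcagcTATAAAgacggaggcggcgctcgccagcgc
TATAAA begins 30 bases before the gene start, and 14.2% of all windows hold one on either strand. Motifs known from activity-regulated genes, searched on both strands as TGACG for CREB, TGANTCA for AP-1, CACGTG for E-box proteins and GCGNGGGCG for EGR factors, had no match in the Pcdh8 window. This says nothing of those factors or of sites further away.

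Knockdown of CCNY was compared with EGFP to ask which members differ when it is lowered. In CCNY-shRNA most members lay lower than in EGFP, Pcdh8, Pcdh20 and Pcdh17 furthest among those above 10 FPKM, while N-cadherin stayed near its control level and Cdh13 and Pcdhgc5 lay higher. Past the adjusted threshold of 0.05 there was 1 member, Pcdh8, of 57 tested, which fell, where 0.746% of all tested genes were called in either direction and 0.579% as lower. At an unadjusted p under 0.05, 12 members were lower (21.1%) and 2 higher, against 9.36% and 9.2% of all tested genes. Of the 57, 45 had a log2 change below 0 (78.9%), against 49.8% of all tested genes, and in 31 (54.4%) both CCNY-shRNA libraries lay below both EGFP libraries, against 24.5%. Both lay above in 6 members, against 23.9% of all tested genes. The median log2 change was -0.17 over the 57 members and 0 over all tested genes.

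**Figure D2:**
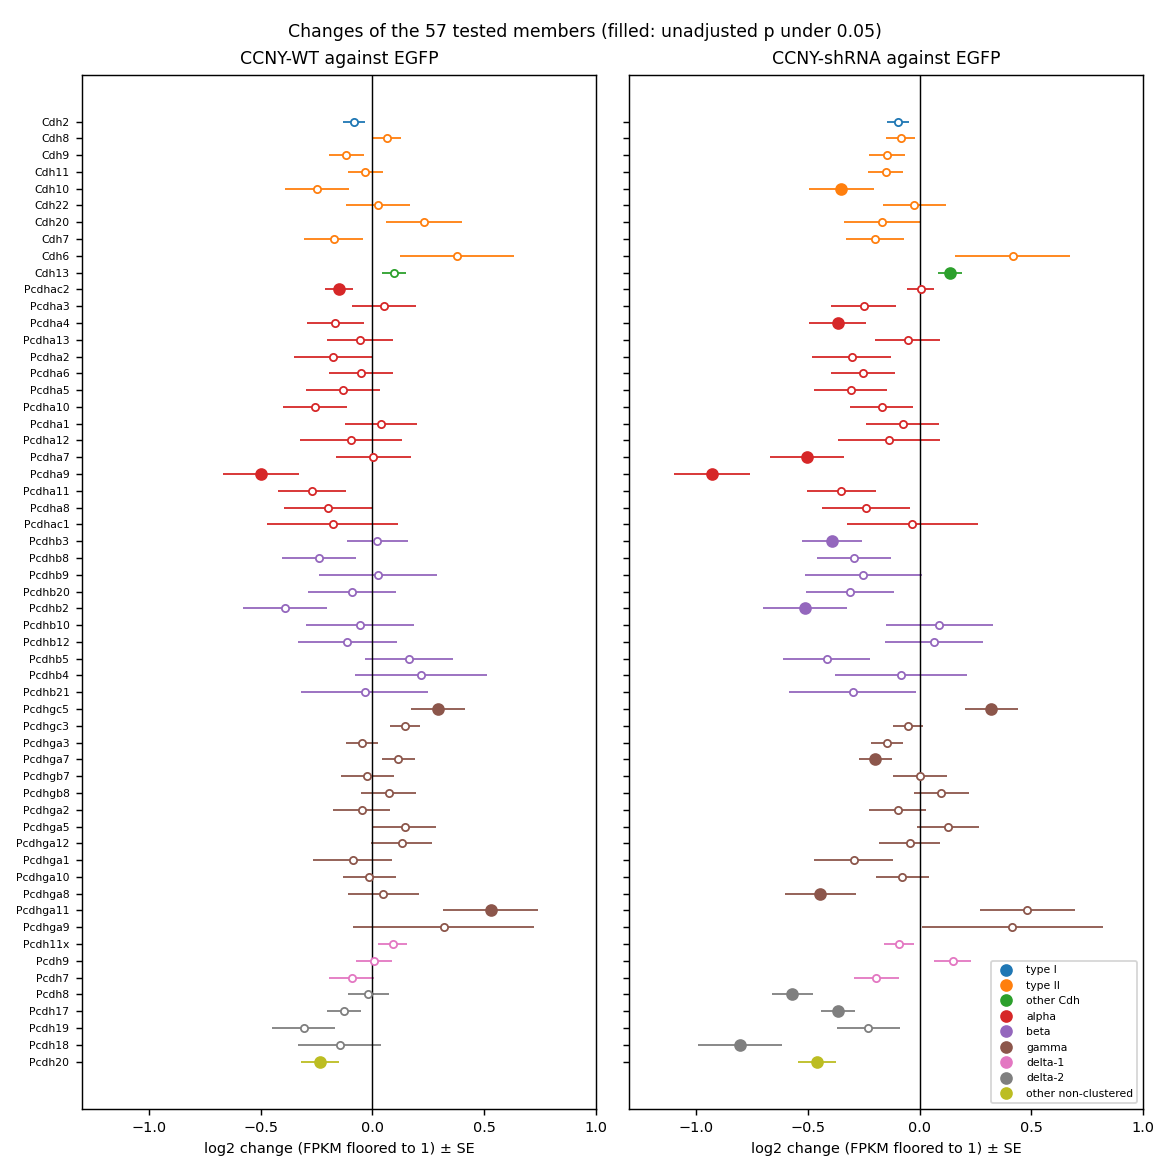
Log2 change against EGFP (horizontal axis, FPKM floored to 1, bars 1 SE from limma) of the 57 tested genes in CCNY-WT (left) and CCNY-shRNA (right), coloured by subfamily and ordered by level within it, with filled points for an unadjusted p under 0.05. On the right, 45 of 57 points lie left of 0, and on the left, 34.

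Markers of cell classes were compared beside this. Gad2 of inhibitory neurons fell from 170.4 and 173 FPKM to 129 in each library (log2 change -0.41, limma adjusted p = 0.0226). Gad1, the other inhibitory marker listed, had 189 and 188 against 183 and 187 (-0.03). Of the 8 neuronal markers 5 lay below 0, and Tubb3 lay higher (0.16, limma adjusted p = 0.193). The astrocyte gene Slc1a3 had 80.8 and 84.0 against 63.5 and 76.1 (-0.24, limma adjusted p = 0.183). Of the 5 astrocyte markers 3 lay below 0, while Aqp4 and S100b lay above (0.04 each). The summed astrocyte markers were 289 to 304 in EGFP and 242 to 308 in CCNY-shRNA, with 1 of 5 lower at an unadjusted p under 0.05, and the neuronal markers summed to 3287 to 3353 and 3315 to 3336. Markers of the oligodendrocyte lineage summed to 44.2 to 44.5 in EGFP and 37.2 to 40.3 in CCNY-shRNA, and vascular and meningeal markers to 64.3 to 72.6 and 63.3 to 66.7. In bulk cultures fewer cells of a type and less RNA per cell cannot be told apart, and the part of these markers in the values of the protocadherins was not tested.

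Pcdh8 had 129 and 131 FPKM under EGFP, 129 and 128 under CCNY-WT, and 97.3 and 79.0 under CCNY-shRNA. The EGFP and CCNY-WT libraries lay together, and both knockdown libraries lay below all of them, although with an SD of 12.9 FPKM against 1.24 for EGFP. The log2 change in CCNY-shRNA was -0.57 (standard error 0.0904, 95% interval -0.78 to -0.36, limma adjusted p = 0.0439), a decrease to 0.674 times the control level. In the 9 alternative fits, among them that of only the 4 libraries compared, the change lay between -0.59 and -0.55. The limma adjusted p ranged from 0.0357 to 0.199 in these 9, and Pcdh8 passed in 4 of them. With a library left out the change was -0.72 without CCNY-shRNA replicate 1 and -0.42 without replicate 2.

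The other delta-2 genes lay lower as well, without passing the adjusted threshold. Pcdh17, which groups axons and presynaptic sites, had 46.8 and 47.4 FPKM under EGFP, 46.0 and 40.4 under CCNY-WT, and 37.2 and 35.9 under CCNY-shRNA. Its knockdown libraries lay below all others (log2 change -0.37, standard error 0.0761, limma adjusted p = 0.0768). Pcdh18 was a weakly expressed gene, with 2.45 and 2.21 under EGFP, 2.195 and 2.02 under CCNY-WT, and 1.35 and 1.33 under CCNY-shRNA. Here too the groups did not overlap (-0.80, standard error 0.187, limma adjusted p = 0.0902), and the floor at 1 bounds the size this change can take. Pcdh19, a gene of an inherited epilepsy, had 10.8 and 11.7 under EGFP, 9.68 and 8.52 under CCNY-WT, and 10.6 and 8.69 under CCNY-shRNA. Its knockdown value of -0.23 had a limma adjusted p of 0.423. The summed FPKM of the 4 delta-2 genes was 189 and 192 under EGFP, 187 and 179 under CCNY-WT, and 146 and 125 under CCNY-shRNA, a change of -28.9%, most of it from Pcdh8.

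Delta-1 genes differ from delta-2 genes in their cytoplasmic motifs. In 2 of the 3, Pcdh11x and Pcdh7, both knockdown libraries lay below both EGFP libraries, against 24.5% of all tested genes. The knockdown libraries of these 2 genes also lay below both CCNY-WT libraries, against 21.9%. Pcdh11x had 35.3 and 33.9 FPKM under EGFP, 37.7 and 36.0 under CCNY-WT, and 32.2 and 32.7 under CCNY-shRNA. Pcdh9 lay on the other side, with 25.8 and 28.5 under EGFP, 28.3 and 26.3 under CCNY-WT, and 30.9 and 29.3 under CCNY-shRNA. Pcdh7 had 13.5 and 14.8 under EGFP, 13.6 and 12.9 under CCNY-WT, and 12.6 and 12.2 under CCNY-shRNA. In knockdown all 3 had an unadjusted p above 0.05, their summed FPKM changed by -1.34%, and their median log2 change of -0.09 stood beside -0.47 for delta-2, a difference between groups that was not tested. Pcdh20, which belongs to neither, had 38.8 and 44.9 under EGFP, 36.2 and 34.8 under CCNY-WT, and 31.4 and 29.4 under CCNY-shRNA. Both other conditions lay below EGFP and knockdown lay lowest (-0.46, standard error 0.0860, limma adjusted p = 0.061).

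**Figure D3:**
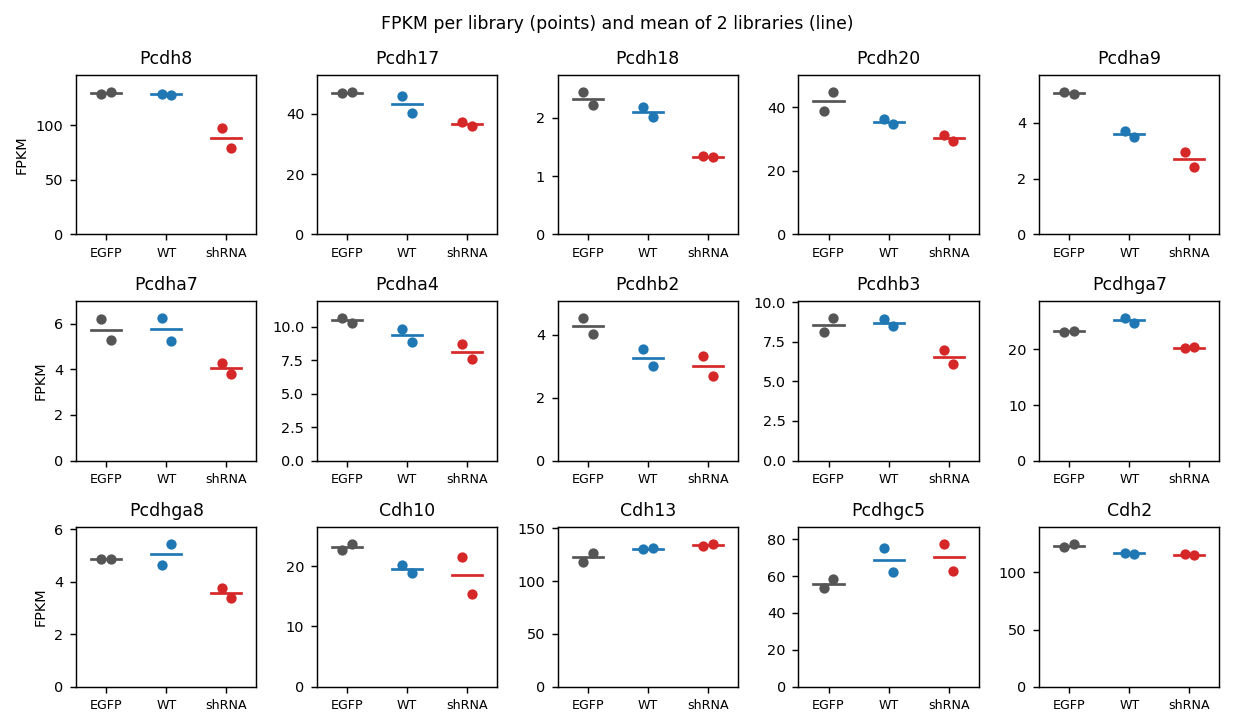
FPKM of each library (points) and the mean of the 2 libraries (lines) in EGFP, CCNY-WT and CCNY-shRNA, for the 14 genes with an unadjusted p under 0.05 in knockdown and for Cdh2. Each vertical axis starts at 0. The first 12 panels hold the genes lower at that p, so that a separation from EGFP there follows largely from the choice. Both knockdown points lie below both EGFP points in these 12. In all of them but Pcdhb2 and Cdh10 the knockdown points also lie below both CCNY-WT points.

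Of 9 tested classical cadherins 0 passed limma's adjusted threshold in any comparison. Cdh2 had 122 and 125 FPKM under EGFP, 117 and 116 under CCNY-WT, and 116 and 115 under CCNY-shRNA. Its libraries in both conditions lay just below EGFP, by a log2 change of -0.08 in CCNY-WT and -0.10 in CCNY-shRNA (standard error 0.0491, 95% interval -0.21 to 0.02, limma adjusted p = 0.343), so that a decrease as large as that of Pcdh8 lies outside the interval. Of the 9 genes 8 lay below 0 in knockdown, against 49.8% of all tested genes, with a median of -0.14. Without overlap 6 lay below EGFP, against 24.5%. The exception was Cdh6, a weakly expressed gene with 1.18 in each EGFP library, 1.94 and 1.22 under CCNY-WT, and 1.57 and 1.58 under CCNY-shRNA. Both conditions lay above EGFP, by 0.38 and 0.42 on the log2 scale (standard error 0.256, limma adjusted p = 0.813 and 0.423). Cdh10 alone had an unadjusted p under 0.05, with 22.7 and 23.6 under EGFP, 20.1 and 18.9 under CCNY-WT, and 21.4 and 15.4 under CCNY-shRNA. The knockdown libraries of Cdh10 differed by more than the conditions did, and its log2 change of -0.35 (limma adjusted p = 0.251) was -0.11 without CCNY-shRNA replicate 2 and -0.59 without replicate 1. Cdh8 had 43.5 and 46.4 under EGFP, 46.2 and 47.8 under CCNY-WT, and 41.7 and 43.1 under CCNY-shRNA, for a knockdown change of -0.08.

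Of the 3 most abundant genes, Cdh13 alone lay above its control. It had 118 and 126 FPKM under EGFP, 131 in each CCNY-WT library, and 134 and 135 under CCNY-shRNA. Both conditions lay above EGFP without overlap, by 0.10 and 0.13 (standard error 0.0539, limma adjusted p = 0.782 and 0.237). The knockdown value was 0.0872 without EGFP replicate 1. The EGFP libraries of Cdh13 had an SD of 5.70 FPKM, larger than the 0.445 of CCNY-WT and the 1.07 of CCNY-shRNA.

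In the alpha array the random-choice isoforms lay lower in knockdown and the abundant C-type isoform did not. All 13 isoforms other than the C-type had a log2 change below 0, with a median of -0.25, where 49.8% of all tested genes lay below 0, and 9 of them (69.2%) lay below EGFP without overlap, against 24.5%. Pcdha9 had 5.12 and 5.05 FPKM under EGFP, 3.70 and 3.49 under CCNY-WT, and 2.96 and 2.42 under CCNY-shRNA. Both conditions lay below EGFP, knockdown further (log2 change -0.93, standard error 0.170, limma adjusted p = 0.0598, against -0.50 and 0.725 in CCNY-WT). Pcdha7 had 6.20 and 5.28 under EGFP, 6.26 and 5.26 under CCNY-WT, and 4.27 and 3.81 under CCNY-shRNA. Only knockdown lay apart here (-0.50, limma adjusted p = 0.174). Pcdha4 had 10.7 and 10.3, 9.86 and 8.83, and 8.69 and 7.59 in the same order, for a knockdown change of -0.37 and a limma adjusted p of 0.185. Pcdhac2, in contrast, had 57.9 and 61.3 under EGFP, 54.0 and 53.4 under CCNY-WT, and 61.6 and 58.1 under CCNY-shRNA, with a knockdown change of 0.01 (95% interval -0.14 to 0.15). Since the alpha isoforms share their constant exons, how the authors' counting split fragments between them is not known, and the 13 values are not independent of each other.

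Beta genes, single exons with no shared part, gave a median of -0.30 over 10 tested genes in knockdown. Of these 8 lay below 0, against 49.8% of all tested genes. Pcdhb3 had 8.13 and 9.003 FPKM under EGFP, 8.90 and 8.48 under CCNY-WT, and 6.995 and 6.07 under CCNY-shRNA. Knockdown lay below all other libraries (log2 change -0.39, limma adjusted p = 0.181). Pcdhb2 had 4.55 and 4.03 under EGFP, 3.54 and 3.00 under CCNY-WT, and 3.33 and 2.69 under CCNY-shRNA. Its CCNY-WT and knockdown libraries overlapped, both below EGFP, and the knockdown change was -0.51 (limma adjusted p = 0.202). The spread between replicates was widest in this array, with a median SD of 0.227 on the log2 scale, against 0.122 in the gamma array, 0.0803 over the 23 members above 10 FPKM and 0.164 over the other 34 tested. Coding sequences of beta genes resemble each other closely, so that fragments could be assigned to the wrong gene.

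Values of the gamma array, whose isoforms share constant exons as well, lay on both sides of the control. Pcdhga7 had 23.2 and 23.4 FPKM under EGFP, 25.7 and 24.8 under CCNY-WT, and 20.2 and 20.5 under CCNY-shRNA. The 3 conditions did not overlap, with overexpression above and knockdown below the control, by 0.12 and -0.20 (standard error 0.0734, limma adjusted p = 0.805 and 0.208). Pcdhga8 had 4.87 and 4.86 under EGFP, 4.65 and 5.44 under CCNY-WT, and 3.77 and 3.39 under CCNY-shRNA, a knockdown change of -0.45 with a limma adjusted p of 0.195. Pcdhgc5 lay above its control, with 53.3 and 58.5 under EGFP, 75.1 and 62.4 under CCNY-WT, and 77.4 and 62.9 under CCNY-shRNA. Both conditions lay above EGFP, but their replicates were about as far apart as the conditions (0.29 and 0.32, standard error 0.119, limma adjusted p = 0.725 and 0.206). Without replicate 1 of the condition the values were 0.16 and 0.17. Pcdhgc3, the C-type isoform known to act in Wnt signalling, had 47.8 and 51.0 under EGFP, 55.2 and 54.1 under CCNY-WT, and 45.9 and 49.4 under CCNY-shRNA. Over the 14 gamma genes the knockdown median was -0.05, with 8 below 0 and 6 above, where 49.8% of all tested genes lay below.

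The C-type isoforms made up a larger share of the clustered FPKM in knockdown. Their share was 38.9% and 38.8% under EGFP, 41.4% and 40.7% under CCNY-WT, and 43.9% and 43.3% under CCNY-shRNA. The 3 conditions did not overlap, and knockdown lay 4.71 percentage points above EGFP. Within the alpha array the share was 39.5% and 40.1% under EGFP, 38.5% and 39.9% under CCNY-WT, and 44.3% and 44.9% under CCNY-shRNA. Within the gamma array it was 44.9% in each EGFP library, 48.8% and 47.2% under CCNY-WT, and 49.8% and 48.3% under CCNY-shRNA. Overexpression thus stood beside knockdown in the gamma array and beside the control in the alpha array. The summed FPKM of the 4 C-type isoforms was 160 and 172 under EGFP against 186 and 172 under CCNY-shRNA. That of the 36 other clustered genes was 251 and 272 against 238 and 226. Of the 4, Pcdhgc5 had a knockdown log2 change of 0.32, against -0.05 for Pcdhgc3, -0.03 for Pcdhac1 and 0.01 for Pcdhac2. In the alpha array the isoforms other than the C-type summed to 90.5 and 93.9 under EGFP against 79.0 and 73.3 under CCNY-shRNA. The grouping by C-type was made after the values had been seen, and no test is given for it.

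**Figure D4:**
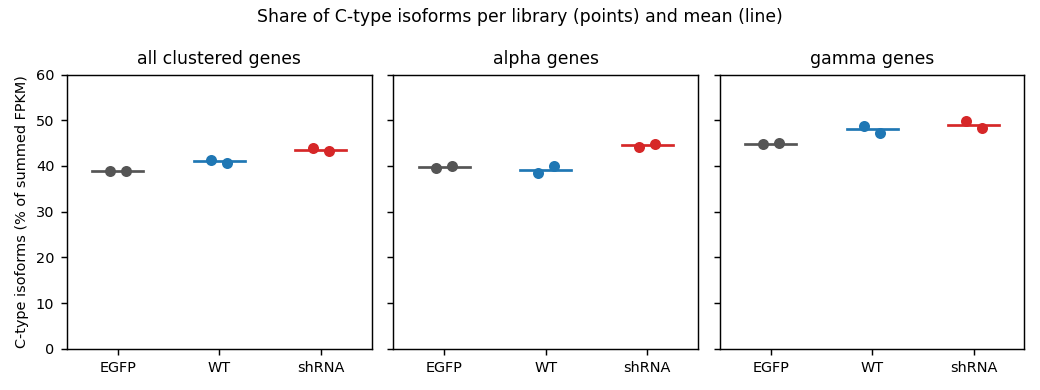
Share of the 4 C-type isoforms in the summed FPKM of all clustered genes, of the alpha array and of the gamma array (percent), with a point per library and a line at the mean of each condition. In all 3 panels both knockdown points lie above both EGFP points, by 4.71 percentage points on average over all clustered genes.

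Classical, clustered and non-clustered genes were then set side by side, without a test between them. In knockdown the summed FPKM of non-clustered protocadherins changed by -21.8%, that of classical cadherins by -7.93% and that of clustered protocadherins by -4.02%. Most of the non-clustered change came from Pcdh8, whose mean was 130 under EGFP and 88.1 under CCNY-shRNA, where the whole sum was 309 and 242. The classical sum was 290.1 and 300.5 under EGFP and 278 and 265 under CCNY-shRNA, without overlap, whereas the clustered sum of 412 and 444 under EGFP overlapped with 424 and 398 under CCNY-shRNA. Median log2 changes were -0.30, -0.14 and -0.17 in the same order. A fold threshold of 0.33, which involves no test, was passed by 16 of the 69, 13 lower and 3 higher. Of all 17066 genes, 782 (4.58%) were lower and 570 (3.34%) higher. These percentages are not a like background, since 57 of the 69 members but only 10188 of all genes passed the filter. Genes under the filter are floored to 1 in all libraries or all but 1, and can hardly pass. The paper, whose authors set this threshold, reports fewer genes in each direction.

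Overexpression of CCNY was compared with EGFP to ask whether raising the same protein moves the same genes. Of 57 members 0 passed limma's adjusted threshold, where Ccny alone (0.00982% of all tested genes) was called as higher and 0% as lower. At an unadjusted p under 0.05, 2 members were higher (3.83% of all tested genes) and 3 lower (3%). The higher ones were Pcdhga11 and Pcdhgc5, both gamma isoforms, and the lower ones Pcdha9, Pcdh20 and Pcdhac2. Values below 0 were found for 34 members (59.6%), against 48.6% of all tested genes. Both CCNY-WT libraries lay above both EGFP libraries in 9 members and below them in 18, against 20.3% and 19.2%. Pcdhga11 had 2.52 and 3.31 FPKM under EGFP, 4.83 and 3.60 under CCNY-WT, and 4.06 and 4.01 under CCNY-shRNA. Both conditions lay above the control (log2 change 0.53 in CCNY-WT and 0.48 in CCNY-shRNA, limma adjusted p = 0.725 and 0.276), and the CCNY-WT value was 0.32 without CCNY-WT replicate 1 and 0.74 without replicate 2. Pcdh20 and Pcdhac2 had log2 changes of -0.24 and -0.15, with limma adjusted p-values of 0.725 and 0.727. Without EGFP replicate 2 that of Pcdh20 was -0.13. For Pcdh8 the CCNY-WT change was -0.02, with a 95% interval of -0.23 to 0.19.

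Median log2 changes in CCNY-WT were -0.03 for classical cadherins, -0.05 for clustered and -0.11 for non-clustered protocadherins, beside 0.0041 over all tested genes. The alpha array had -0.15, with 12 of 15 genes below 0, against 48.6% of all tested genes. The gamma array had 0.09, with 5 of 14 below 0. Both comparisons share the EGFP libraries, so that values on the same side of EGFP in the 2 conditions are not separate evidence. At a fold threshold of 0.3, 3 members were higher and 3 lower in CCNY-WT, and 2.8% and 2.31% of all genes. Here too the percentages include the genes under the filter and are not a like background. The paper, whose authors set this threshold as well, again reports fewer genes in each direction.

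Knockdown was also compared directly with overexpression, which leaves the EGFP libraries out of the difference. Of 57 members 0 passed limma's adjusted threshold, beside 0.216% of all tested genes, 0.0196% as higher and 0.196% as lower. At an unadjusted p under 0.05, 14 members were lower in knockdown and 1 higher, against 7.12% and 5.05% of all tested genes. Below 0 lay 43 members (75.4%), against 49.5% of all tested genes, and both knockdown libraries lay below both CCNY-WT libraries in 27 and above in 4, against 21.9% and 20.3%. Pcdh8 had the smallest adjusted p (log2 difference -0.55, standard error 0.0904, limma adjusted p = 0.0797), followed by Pcdhga7 (-0.31, limma adjusted p = 0.18) and Pcdh18 (-0.66, limma adjusted p = 0.26). Pcdhb5, with 2.51 and 2.69 FPKM under EGFP, 2.63 and 3.22 under CCNY-WT, and 1.79 and 2.12 under CCNY-shRNA, was among the 14 here and not in the comparison with EGFP (-0.58, limma adjusted p = 0.317). The same held for Cdh20 (-0.40, or -0.18 without CCNY-shRNA replicate 2), Cdh8 (-0.15), Pcdh11x (-0.18) and Pcdhgc3 (-0.20). Pcdhac2, the single higher gene, differed by 0.16. Non-clustered genes had a median of -0.20, clustered genes of -0.11 and classical genes of -0.05.

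The proteins that work with cadherins gave a few calls of their own, to be read beside the 0.579% of all tested genes called lower in knockdown and the 9.36% lower and 9.2% higher at an unadjusted p under 0.05. In knockdown 0 of 11 catenins and junction partners passed limma's adjusted threshold, and 4 were lower at that unadjusted p, beta-catenin (Ctnnb1), afadin (Mllt4) and the nectins Pvrl1 and Pvrl3. Ctnnb1 had 171 and 170.0 FPKM under EGFP, 164 and 161 under CCNY-WT, and 156 and 151 under CCNY-shRNA (log2 change -0.15, limma adjusted p = 0.171). Pvrl1 came closest, with -0.29 and a limma adjusted p of 0.0826. Against CCNY-WT, delta-catenin (Ctnnd2) was the 1 partner of this list higher at an unadjusted p under 0.05 (0.16, limma adjusted p = 0.353). Pvrl1 was the 1 lower at that p (-0.16, limma adjusted p = 0.374). The shares of all tested genes in that comparison were 5.05% higher and 7.12% lower. In knockdown against EGFP all 11 tested genes of the wider cadherin superfamily lay below 0, against 49.8% of all tested genes. Fat3 (-0.01) and Clstn1 (-0.02) were close to 0. Clstn2, a calsyntenin of the postsynaptic membrane, fell from 58.7 and 62.2 to 44.6 and 40.9 (-0.50, standard error 0.0675, limma adjusted p = 0.0312). That call held in 6 of 9 alternatives but, with a library left out, only without CCNY-shRNA replicate 1. Clstn2 was also lower in CCNY-WT, at 46.9 and 46.0, with a limma adjusted p of 0.326. Fat1 (-0.41), Dchs1 (-0.35) and Ret (-0.40) were lower in knockdown at an unadjusted p under 0.05, with limma adjusted p-values of 0.174, 0.15 and 0.202, and Fat1 was so in CCNY-WT as well (-0.35).

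Adam10, the protease that sheds the outer part of N-cadherin and of gamma protocadherins, had 52.3 and 52.2 FPKM under EGFP, 55.3 and 48.9 under CCNY-WT, and 35.4 and 33.8 under CCNY-shRNA. It fell in knockdown (log2 change -0.60, standard error 0.0742, limma adjusted p = 0.0231), a call that 7 of 9 alternatives kept and that was lost without either EGFP library and without CCNY-shRNA replicate 2 (limma adjusted p = 0.13, 0.231 and 0.0623). Ncstn, a subunit of the gamma-secretase that cuts the remaining stub, was lower at an unadjusted p under 0.05 (-0.16, limma adjusted p = 0.182). Of 8 tested genes of clustered promoter choice only Smc1a, a cohesin subunit, had an unadjusted p under 0.05 in knockdown (-0.26, limma adjusted p = 0.202), and Ctcf, which binds the array promoters, had 13.2 and 14.6 under EGFP and 11.96 and 13.8 under CCNY-shRNA. Among 8 tested effectors Cyfip1 (-0.29, limma adjusted p = 0.0828) and Cyfip2 (-0.15), of the WAVE complex, were lower and the kinase Mapk14 (0.17) higher at an unadjusted p under 0.05, with 0 past the adjusted threshold.

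Activity-regulated genes were set beside Pcdh8 because it is known as one of them. In knockdown 0 of 10 passed limma's adjusted threshold, and 1, Nr4a1, was lower at an unadjusted p under 0.05 (-0.49, limma adjusted p = 0.105), against 9.36% of all tested genes. In CCNY-WT Fosb was higher (0.51) and Egr1 (-0.42) and Nr4a1 (-0.33) lower at that p, against 3.83% and 3% of all tested genes, each with a limma adjusted p of 0.725. Knockdown lay below CCNY-WT at that p in Fos (-0.20), Fosb (-0.54) and Nptx2 (-0.28), against 7.12%. Arc had 29.0 and 28.5 FPKM under EGFP and 28.9 and 23.6 under CCNY-shRNA, and Fos 22.9 and 22.5 against 22.1 and 20.5. Npas4 lay on the other side, with 11.3 and 13.6 against 18.99 and 13.5.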

How the data were processed

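RNA-seq was measured in 6 libraries of cultured rat hippocampal neurons, 2 each for EGFP, CCNY-WT and CCNY-shRNA. The authors deposited FPKM per gene and library, computed with TopHat2 2.0, Bowtie2 2.1.0 and Cufflinks 2.2.1 on rn4, per the submitters' processing notes; the annotation is not given in the sources used here, and only relative depth could be estimated, from steps between low values. FPKM was floored to 1 and log2-transformed, and limma 3.58.1 in R 4.3.3 (trend, all 6 libraries, 10188 genes with at least 1 FPKM in 2 libraries) gave changes, with Benjamini-Hochberg adjustment over all of them and a threshold of 0.05. The fit was tested on simulated data. Alternatives changed the offset, filter, scaling, spread, samples and replicate block, and left out each library. Genes named were Ccny, members and partners with an unadjusted p under 0.05, the 4 highest of each subfamily and markers of other cell types, apart from items not reported here; those of the C-type, Arc, Fos, Npas4 and Ctcf were also named after their values were seen. Members and lists were chosen with earlier results of these data known. Tables were handled with Python 3.11.15 and pandas 2.3.3.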

Additional observations from a re-analysis of the deposited data

How the results depend on the processing

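Of 369 changes of single genes recomputed under another setting, 356 kept their direction and side of the threshold. Most of these had not passed the threshold to begin with, so that keeping their side says little. Of the calls in knockdown other than Ccny, that of Pcdh8 held in 4 of 9 alternatives, that of Clstn2 in 6 and that of Adam10 in 7. The Adam10 call against CCNY-WT held in 6 of 9. No single gene changed sign, but family medians near 0 in CCNY-WT did. The single member call in CCNY-shRNA, Pcdh8, became 0 with no filter, upper quartile scaling, no trend, only the 4 libraries compared, and the replicate block. With a library left out it ranged from 0 to 1, lost without either EGFP and either CCNY-WT library, and against CCNY-WT from 0 to 1, gained without CCNY-shRNA replicate 1. The main fit called 17 higher and 59 lower over all genes. These calls fell to 1 and 1 with no filter and to 0 and 1 with no trend. They were 8 and 31 with the replicate block, 4 and 21 with only the 4 libraries compared and 21 and 42 with upper quartile scaling. Quantile normalization gave 16 and 60. The calls rose to 30 and 78 with the mean FPKM filter, 18 and 64 with log2(FPKM + 1) and 18 and 67 with log2(FPKM + 0.1). The cause of these differences was not tested. The labels do not say whether the replicate numbers pair libraries across conditions. Deviations from the condition mean correlated over genes at -0.02 between EGFP and CCNY-WT and -0.03 between EGFP and CCNY-shRNA. Between CCNY-WT and CCNY-shRNA the correlation was 0.16. With 2 libraries a condition, these values cannot decide whether the libraries are paired. Without a filter, which adds 2 genes near 0, the non-clustered median was -0.0549 in CCNY-WT, -0.21 in CCNY-shRNA and -0.14 between them. With a library left out it ranged from -0.17 to -0.0435, from -0.38 to -0.25 and from -0.23 to -0.15, and the clustered median in CCNY-WT from -0.13 to 0.0441, above 0 without EGFP replicate 2 and, at 0.0138, without CCNY-WT replicate 2. The classical median in CCNY-WT was 0.0472 without EGFP replicate 2 and 0 with no filter. In CCNY-shRNA, without EGFP replicate 2, the clustered and classical medians were -0.0980 and -0.0803. Members past the fold threshold of 0.3 in CCNY-WT numbered 3 with log2(FPKM + 1), and 6 to 15 with a library left out, 15 without EGFP replicate 1 and 11 without CCNY-WT replicate 1, both chosen after seeing the data. The C-type difference was 4.13 points with gamma genes alone. Members with few fragments limit what depth can show.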
